A study of Mus musculus with 24 samples.

Results

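The BCL2 family decides whether a cell's mitochondria release the proteins that start apoptosis. The 10 genes described here were taken by name from the mouse family, 4 that protect cells (Bcl2, Bcl2l1, Mcl1 and Bcl2a1b) and 6 that promote death (the pore-forming effectors Bax and Bak1, and the BH3-only genes Bid, Bcl2l11, Bbc3 and Pmaip1). They were found by symbol among 38887 Ensembl genes of the deposited count table, and all 10 had a row and passed the filter on low counts, which 14188 genes passed.

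The samples were mouse dendritic cells (DCs) cultured from bone marrow, 4 libraries in each of 6 groups. The cells were labelled wild type (WT) or knockout (KO) for IRE1, the endoplasmic reticulum stress sensor encoded by Ern1, and had received no stimulus, zymosan (a yeast cell wall preparation) or LPS (bacterial lipopolysaccharide). No source used here gives the means of deletion, the dose, the time or the age of the mice, and none says whether the replicates were separate animals. The p-values therefore measure the spread between these libraries, which may be technical.

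Survival proteins such as BCL2, BCL-XL (Bcl2l1), MCL1 and A1 (the Bcl2a1 genes) hold the effectors BAX and BAK in check. BH3-only proteins sense damage or loss of growth signals and act by binding the survival proteins or by switching on the effectors. In DCs, stimulation through pattern receptors is known to alter this balance, and MCL1 and A1 are known as short-lived proteins.

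Libraries held 32223256 to 46927434 counts. Levels are CPM, that is counts scaled to a library total of 1000000 with edgeR's TMM factors, and changes are log2 fold changes ± standard error (SE) from 1 edgeR quasi-likelihood model of all 24 samples. A gene was called at an edgeR adjusted p (Benjamini-Hochberg over all tested genes) under 0.05. Whole-gene counts of Ern1 were higher in the libraries labelled KO (48.2 to 54.6 CPM) than in WT (40.2 to 43.3 CPM) in untreated cells, which checks nothing about a deletion of part of the gene, so the genotype is named below as labelled. Replicates 1 and 2, and replicates 3 and 4, of a group lay closer to each other than other pairs did (median chi-square per gene 4.10 over 12 such pairs, 15.9 over the other 24). Of the marker lists, 12 conventional DC genes summed to 3027 to 4678 CPM (led by H2-Aa), 9 macrophage genes to 1934 to 2824 CPM (led by Csf1r) and 12 neutrophil genes to 1812 to 2862 CPM (led by S100a9). B cell markers summed to at most 2.99 CPM and T and NK cell markers to at most 0.63 CPM. Eosinophil markers summed to 820 to 1251 CPM in WT and to 47.4 to 61.9 CPM in the labelled KO, whatever the stimulus.

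Bcl2a1b (ENSMUSG00000089929, GRCm38 chromosome 9, 89199209 to 89207827, plus strand) is 1 of a set of near-identical copies, which bears on how its counts are read. The first 120 of its 519 coding bases are shown here beside the same stretch of the 3 copies, all from GENCODE M21 transcripts. Capitals mark each base at which a copy differs from Bcl2a1b, and, in the Bcl2a1b line, each base at which any copy differs from it.
Bcl2a1b: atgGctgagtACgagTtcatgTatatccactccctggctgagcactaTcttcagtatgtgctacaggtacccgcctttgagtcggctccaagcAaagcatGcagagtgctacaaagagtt
Bcl2a1a: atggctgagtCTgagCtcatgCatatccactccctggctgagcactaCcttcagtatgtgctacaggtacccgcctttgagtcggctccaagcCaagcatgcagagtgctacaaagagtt
Bcl2a1d: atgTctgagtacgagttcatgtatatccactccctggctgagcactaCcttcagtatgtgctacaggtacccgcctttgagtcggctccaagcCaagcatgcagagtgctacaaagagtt
Bcl2a1c: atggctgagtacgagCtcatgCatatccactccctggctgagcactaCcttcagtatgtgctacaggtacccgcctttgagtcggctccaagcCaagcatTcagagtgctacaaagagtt

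Over this stretch Bcl2a1d differed from Bcl2a1b at 3 bases, Bcl2a1c at 5 and Bcl2a1a at 6. Over the aligned bases, Bcl2a1d was 99.1% identical to Bcl2a1b and Bcl2a1a 98.2% (817 bases each), and Bcl2a1c 95.3% (443 bases). Of the 768 windows of 50 bases in the Bcl2a1b transcript, 57.6% occurred letter for letter in Bcl2a1d, 41.1% in Bcl2a1a and 0.3% in Bcl2a1c. The Bcl2a1c transcript is only 444 bases long, against 817 for Bcl2a1b, so many of the windows could not occur in it. Only Bcl2a1b and Bcl2a1c were matched to rows, and Bcl2a1a and Bcl2a1d were not analysed here, so the Bcl2a1b row may hold reads of those copies. Gm29094, another gene model on the same strand, shares 401 bases, 49.1% of the Bcl2a1b exons, and was not analysed here. A level given for Bcl2a1b is therefore uncertain as to copy.

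The promoters of Bcl2a1b and Bcl2 are shown because these were the listed survival genes with the largest responses, in opposite directions. Each runs from 250 bases before to 50 bases after the start in RefSeq (GRCm38.p6), and capitals mark matches on either strand to GGGNNNNNCC, a loose form of the motif bound by the inflammatory transcription factor NF-kB.
Bcl2a1b (chr9:89199023-89199322, plus strand): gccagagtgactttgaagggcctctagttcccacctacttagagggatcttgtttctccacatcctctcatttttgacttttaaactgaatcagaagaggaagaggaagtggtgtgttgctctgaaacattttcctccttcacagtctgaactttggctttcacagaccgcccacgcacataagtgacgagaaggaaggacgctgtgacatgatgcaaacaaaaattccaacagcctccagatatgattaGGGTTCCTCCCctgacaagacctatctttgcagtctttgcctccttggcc
Bcl2 (chr1:106714241-106714540, minus strand): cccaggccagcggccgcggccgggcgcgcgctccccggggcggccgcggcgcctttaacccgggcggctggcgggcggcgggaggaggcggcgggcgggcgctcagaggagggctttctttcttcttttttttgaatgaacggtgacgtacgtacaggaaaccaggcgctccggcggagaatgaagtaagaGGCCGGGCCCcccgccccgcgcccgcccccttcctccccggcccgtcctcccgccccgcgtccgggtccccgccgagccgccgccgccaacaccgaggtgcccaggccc

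The window of Bcl2a1b held 46.7% G and C, and that of Bcl2 76.0%, against a median of 52.7% over 32851 promoters. Also above that median were the windows of Bbc3 (74.7% to 78.0%), Bcl2l11 (71.0% and 74.0%), Mcl1 (65.7%), Bid (63.3%), Bak1 (58.3%) and Bax (57.3%). Those of Bcl2l1 ran from 49.3% to 55.7%. The motif was found in 12 of the 14 windows of the 9 members with an entry, and 50.8% of all promoters of the same length hold it. The windows without it were 2 of the 3 of Bcl2l1. The 14 windows are not all separate, since 2 of those of Bbc3 overlap and share matches. The share over all promoters was not matched for G and C. Whether the motif is more frequent in the family was not tested. Its 2 overlapping matches in Bcl2a1b begin at the start site and 1 base after it, and the match in Bcl2 begins 59 bases before the start. This RefSeq start of Bcl2a1b lies inside the GENCODE span given above, so its matches lie within that span. The windows of the copies Bcl2a1a and Bcl2a1d held no match, and they ended inside the same stretch of sequence.

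Relative to the length of merged exons, Bcl2a1b and Mcl1 were the most abundant of the 10 genes in every group, and Bcl2 had the lowest mean. In untreated cells of each genotype Bcl2 overlapped Bbc3 (1.94 to 2.36 against 2.13 to 2.72 CPM per kilobase in WT). Not divided by exon length, Bcl2 in untreated WT cells (mean 19.6 CPM) lay above Bid (14.8) and Bbc3 (5.27). In untreated WT cells the mean levels were 611 CPM per kilobase (kb) of exon for Bcl2a1b and 207 for Mcl1. Bax followed at 64.9, Bak1 at 47.1, Bcl2l1 at 21.8 and Pmaip1 at 18.8 CPM per kb. Bid, Bcl2l11 and Bbc3 lay between 2.48 and 4.16, and Bcl2 was at 2.14 CPM per kb. Bcl2a1b and Mcl1 together made 97.2% ± 0.1 (SD, n = 4) of the summed level per kb of the 4 survival genes in untreated WT cells, 98.5% with zymosan and 98.8% with LPS. These shares carry the uncertainty over the Bcl2a1 copies given above.

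**Figure D1:**
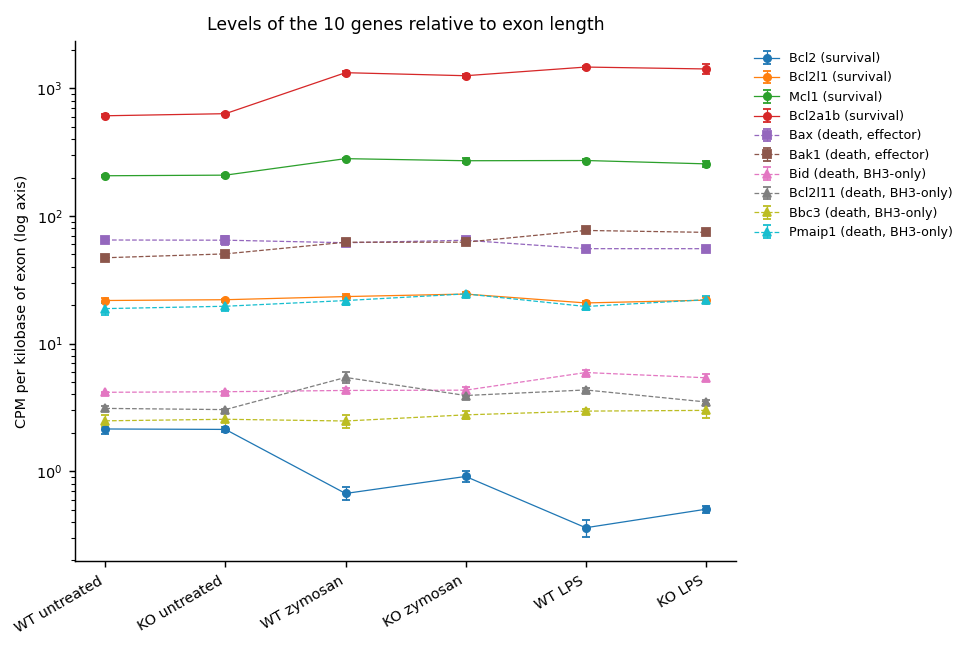
Mean CPM per kilobase of merged exon (log axis) of the 10 genes in the 6 groups, with bars of 1 SD over 4 samples; circles are survival genes, squares effectors, triangles BH3-only genes, and the lines only join values of 1 gene. Bcl2a1b and Mcl1 lie above all other members in each group, and Bcl2 falls from 2.14 CPM per kb in untreated WT cells to 0.36 with LPS.

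The summed level of the 4 survival genes was 842 CPM per kb (828 to 873) in untreated WT cells, 1636 (1565 to 1684) with zymosan and 1766 (1723 to 1817) with LPS. The labelled KO gave 868, 1556 and 1701 CPM per kb in the same order. The 6 death genes summed to 141 CPM per kb in untreated WT cells, 158 with zymosan and 165 with LPS, and to 145, 163 and 164 in the labelled KO. Samples of stimulated and untreated cells did not overlap in the survival sum or in the death sum, in either genotype. In WT the death sum was 137 to 147 CPM per kb untreated, 151 to 164 with zymosan and 163 to 169 with LPS. Bcl2a1b, uncertain as to copy, made up most of the survival sum (1472 of 1766 CPM per kb in WT with LPS). Bax and Bak1 made 78.1% to 80.2% of the death sum in all 6 groups.

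In WT cells 7 of the 10 members passed the test with zymosan and 8 with LPS, shares near those of all tested genes. Zymosan raised 6 members (3 survival, 3 death) and lowered 1, against 34.3% of all tested genes called higher and 35.9% called lower. LPS raised 6 members (2 survival, 4 death) and lowered 2, against 35.9% higher and 39.7% lower. The median log2 change of the 10 members was 0.16 with zymosan and 0.32 with LPS, and over all tested genes -0.01 and -0.04. In the labelled KO zymosan raised 6 members (3 survival, 3 death) and lowered 1 (background 31.6% and 35.2%), and LPS raised 7 (2 survival, 5 death) and lowered 2 (background 34.4% and 37.4%). All 4 comparisons of a genotype with its own untreated cells share those untreated samples between zymosan and LPS. In bulk samples, fewer cells of a type and less RNA per cell cannot be told apart.

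**Figure D2:**
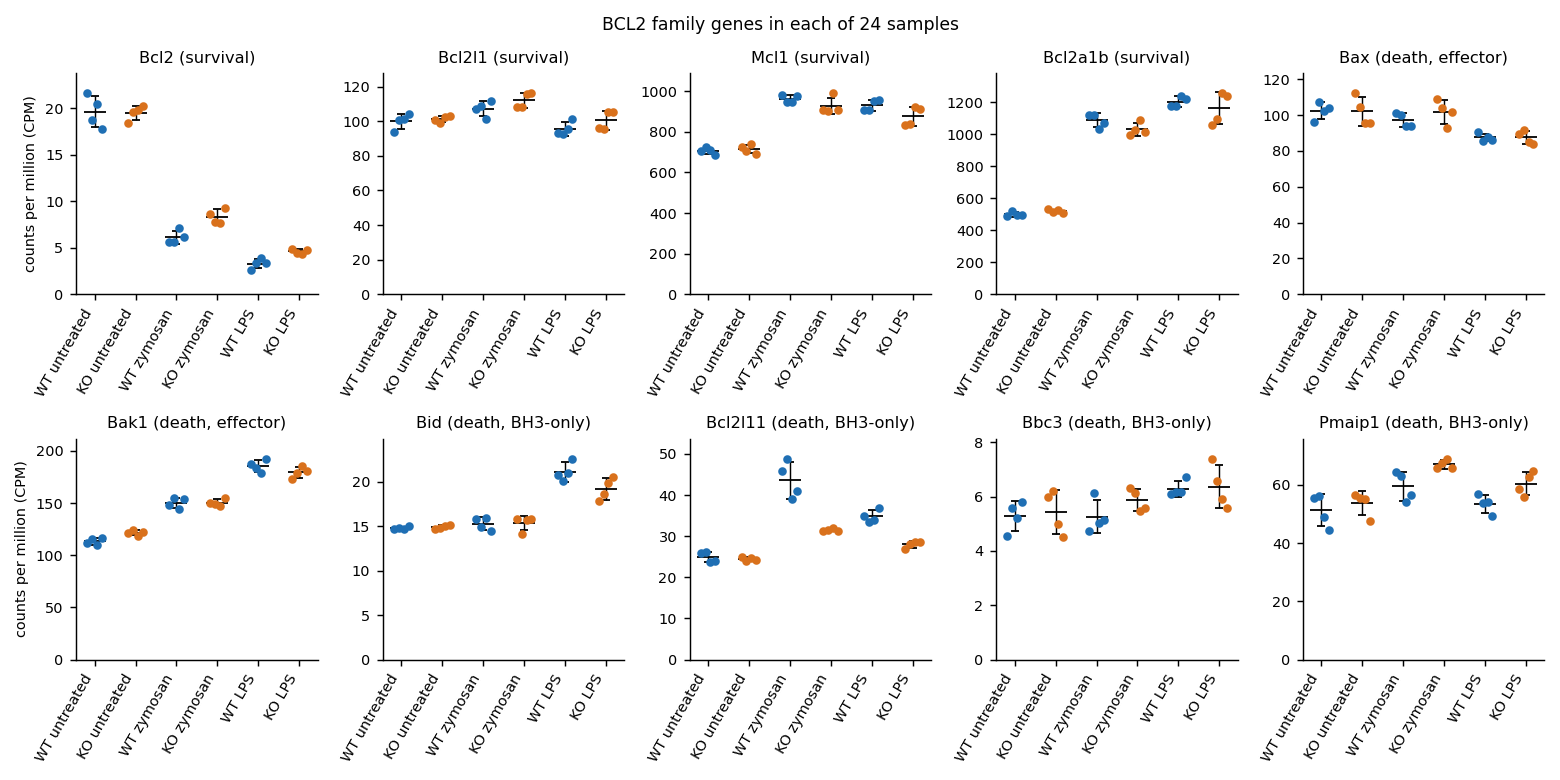
CPM of each of the 10 genes in each of the 24 samples (points, replicates 1 to 4 from left to right; blue WT, orange labelled KO; axes start at 0), with the mean and 1 SD as black bars. Bcl2 falls and Bcl2a1b rises with both stimuli without overlap with untreated samples, and stimulated Bcl2l11 lies lower in the labelled KO than in WT.

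Bcl2 (ENSMUSG00000057329, chromosome 1, 106538178 to 106714274, minus strand), the founding survival gene, had the largest change of the 10 genes. In untreated WT cells it stood at 21.6, 18.8, 20.4 and 17.8 CPM. With zymosan the 4 WT samples read 5.57, 5.63, 7.11 and 6.21 CPM, and with LPS 2.61, 3.32, 3.88 and 3.40 CPM. Every stimulated sample lay below every untreated one, and every LPS sample below every zymosan sample. The fall was 3.20-fold with zymosan (log2 -1.68 ± 0.09, edgeR adjusted p = 7.21e-15) and 5.91-fold with LPS (log2 -2.56 ± 0.09, edgeR adjusted p = 3.56e-18). An antisense gene overlaps 558 bases of its exons, at 0 to 6 counts in any library against at least 87 for Bcl2.

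Samples labelled KO began at the same level of Bcl2 and fell less far. Untreated, they read 18.4, 19.6, 19.8 and 20.2 CPM. With zymosan they read 8.63, 7.74, 7.66 and 9.31 CPM, and with LPS 4.89, 4.39, 4.36 and 4.80 CPM. The falls within this genotype were 2.33-fold (log2 -1.22 ± 0.08) and 4.22-fold (log2 -2.08 ± 0.09), again with no overlap with the untreated samples.

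Bcl2a1b encodes A1, a survival protein of blood cells, and had the largest rise of the 10 genes in each of the 4 stimulation comparisons. Untreated WT samples held 489, 520.2, 495 and 493 CPM. Zymosan took them to 1122, 1121, 1033 and 1069.7 CPM, and LPS to 1174, 1178, 1239.8 and 1219 CPM. No stimulated sample came near the untreated range, and all LPS samples lay above all zymosan samples. The rise was 2.18-fold with zymosan (log2 1.12 ± 0.05, edgeR adjusted p = 2.5e-16) and 2.41-fold with LPS (log2 1.27 ± 0.05, edgeR adjusted p = 1.08e-17). Samples labelled KO gave 530.5, 511, 523 and 509 CPM untreated, 992, 1027, 1085 and 1011 CPM with zymosan, and 1057, 1096, 1254 and 1241 CPM with LPS. The last group was split, with replicates 1 and 2 lower than replicates 3 and 4. Summing the rows of Bcl2a1b and Bcl2a1c changed no call of Bcl2a1b in the 11 comparisons. Bcl2a1c held only 1045 counts in untreated WT cells, against 95949 for Bcl2a1b, and Bcl2a1a and Bcl2a1d were not in the sum. The sum therefore could not show whether the Bcl2a1b row holds reads of those copies. The row of Bcl2a1c, the copy that shares the fewest windows with Bcl2a1b, also rose, from 4.87 to 6.20 CPM in untreated WT samples to 11.03 to 13.5 CPM with zymosan and 14.1 to 16.7 CPM with LPS (log2 1.21 ± 0.11 and 1.47 ± 0.11).

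Mcl1 (ENSMUSG00000038612, chromosome 3, 95658788 to 95663176, plus strand), whose protein turns over quickly, rose by a smaller factor from a high level. Untreated WT samples held 706, 725, 710.1 and 688 CPM. With zymosan they held 979.8, 948, 949 and 976 CPM, and with LPS 909, 907, 953 and 958 CPM. Stimulated and untreated samples did not overlap, while the ranges for the 2 stimuli did. The rise was 1.36-fold with zymosan (log2 0.45 ± 0.04, edgeR adjusted p = 5.4e-10) and 1.32-fold with LPS (log2 0.40 ± 0.04, edgeR adjusted p = 3.17e-09). In the labelled KO the mean went from 715 CPM to 928 with zymosan (log2 0.38 ± 0.04) and 877 with LPS (log2 0.29 ± 0.04).

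Bcl2l1 (ENSMUSG00000007659, chromosome 2, 152780668 to 152831728, minus strand), which encodes BCL-XL, hardly moved. Its 24 samples all lay between 92.5 and 116 CPM. Zymosan raised it by log2 0.10 ± 0.04 in WT (edgeR adjusted p = 0.0419, ranges overlapping) and by 0.15 ± 0.04 in the labelled KO (edgeR adjusted p = 0.00492, no overlap). The WT call was lost without any 1 of 6 of the 8 samples compared (edgeR adjusted p from 0.0528 without untreated replicate 3 to 0.164 without untreated replicate 1; the others were untreated replicate 2 and zymosan replicates 1, 2 and 4). Both were lost when replicates 1 and 2, and 3 and 4, were summed (edgeR adjusted p = 0.196 and 0.0832). The WT call was also lost with no filter on low counts (edgeR adjusted p = 0.151) and in a model of only the 2 groups (0.0648). With LPS it passed the test in neither genotype (log2 -0.06 ± 0.04 and -0.01 ± 0.04, 95% interval in WT -0.15 to 0.03).

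**Figure D3:**
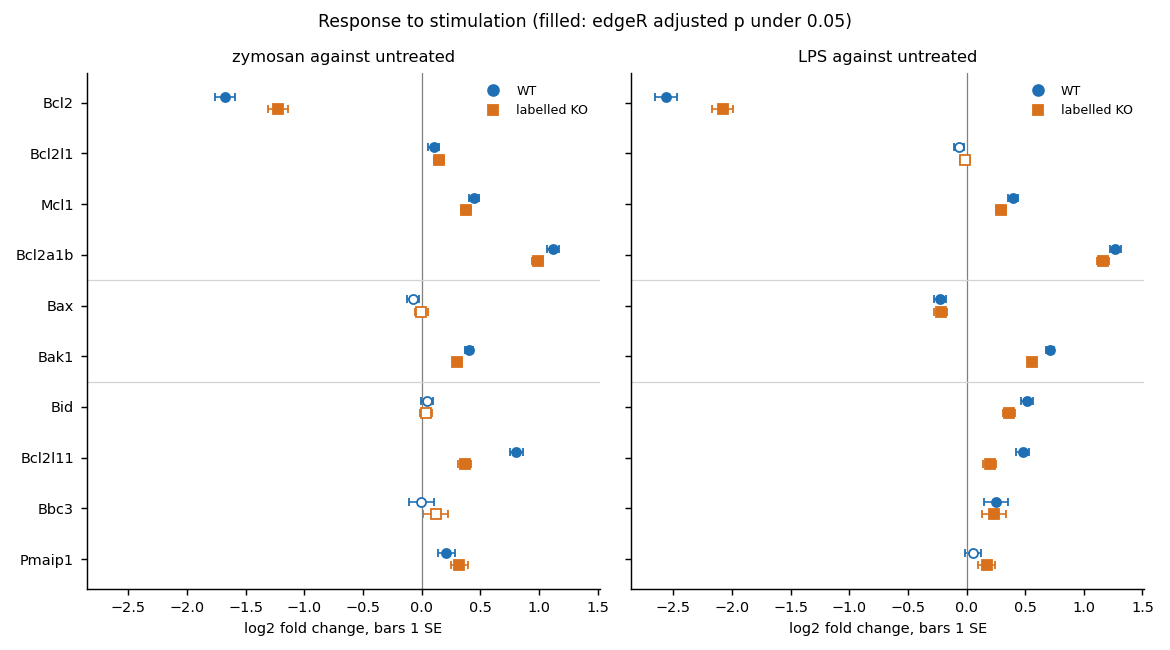
Log2 fold change (points) with bars of 1 SE for zymosan (left) and LPS (right) against untreated cells, in WT (blue circles) and labelled KO (orange squares); filled symbols are edgeR adjusted p under 0.05, and grey lines divide survival genes, effectors and BH3-only genes. Bcl2 alone lies below -1, and Bcl2a1b lies near or above 1 in each panel.

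The effectors moved apart. Bak1 (ENSMUSG00000057789, chromosome 17, 27019810 to 27029009, minus strand) forms the pore from a resting place on the mitochondrial membrane. Its untreated WT samples read 112, 115, 109.8 and 117 CPM, with zymosan 148, 154, 144 and 154 CPM, and with LPS 187, 183, 179 and 193 CPM. The 3 ranges did not overlap, and the rise was 1.32-fold with zymosan (log2 0.40 ± 0.04, edgeR adjusted p = 1.77e-10) and 1.64-fold with LPS (log2 0.71 ± 0.04, edgeR adjusted p = 1.5e-15). In the labelled KO the rises were log2 0.30 ± 0.04 and 0.56 ± 0.04. Exons of Ggnbp1 on the other strand overlap 437 bases of Bak1 at only 34 to 110 counts in any library, and Ggnbp1 was called in none of the comparisons.

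Bax (ENSMUSG00000003873, chromosome 7, 45461697 to 45466898, minus strand), the effector that waits in the cytosol, fell with LPS and did not pass the test with zymosan. Untreated WT samples lay between 95.8 and 107 CPM, zymosan samples between 94.0 and 101 CPM, and LPS samples between 85.6 and 90.4 CPM. LPS lowered it 1.17-fold in WT (log2 -0.23 ± 0.05, edgeR adjusted p = 0.000418) and 1.17-fold in the labelled KO (log2 -0.22 ± 0.05, edgeR adjusted p = 0.000564), without overlap in either. Per kb, Bax lay above Bak1 in untreated cells (64.9 against 47.1 in WT) and below it with LPS (55.5 against 77.1 in WT). A gene model on the same strand, Gm45808, shares 192 bases, 12.2% of the Bax exons, and was not analysed here. With zymosan the 2 effectors were level in WT (61.8 and 62.3 CPM per kb).

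Among the listed BH3-only genes, Bcl2l11 (ENSMUSG00000027381, chromosome 2, 128126038 to 128162547, plus strand) changed most with zymosan. It encodes BIM, which binds all the main survival proteins and limits the life span of activated immune cells. Untreated WT samples read 25.9, 26.2, 23.7 and 24.02 CPM. Zymosan gave 45.8, 48.9, 39.0 and 40.9 CPM, and LPS 34.8, 33.5, 34.0 and 36.9 CPM. The 3 ranges were separate, with zymosan highest, and within the zymosan group replicates 1 and 2 stood above 3 and 4. The rise was 1.75-fold with zymosan (log2 0.81 ± 0.05, edgeR adjusted p = 1.06e-12) and 1.39-fold with LPS (log2 0.48 ± 0.05, edgeR adjusted p = 1.45e-08).

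In the labelled KO the rise of Bcl2l11 was smaller. Untreated samples read 24.9, 23.9, 24.7 and 24.2 CPM, zymosan samples 31.3, 31.4, 31.95 and 31.3 CPM, and LPS samples 26.9, 28.0, 28.6 and 28.6 CPM. The stimulated samples still lay above all untreated ones. The rises were 1.29-fold (log2 0.37 ± 0.05, edgeR adjusted p = 1.93e-06) and 1.15-fold (log2 0.20 ± 0.05, edgeR adjusted p = 0.00218). The LPS call was lost with replicate pairs summed (edgeR adjusted p = 0.0522).

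Bid (ENSMUSG00000004446, chromosome 6, 120891930 to 120916853, minus strand), which links death receptors to the mitochondria, rose with LPS and did not pass the test with zymosan. Its WT samples lay between 14.6 and 15.0 CPM untreated, between 14.4 and 15.9 CPM with zymosan and between 20.02 and 22.6 CPM with LPS. LPS raised it 1.43-fold in WT (log2 0.51 ± 0.05, edgeR adjusted p = 1.12e-09) and 1.29-fold in the labelled KO (log2 0.36 ± 0.05, edgeR adjusted p = 5.31e-07), and zymosan gave log2 0.05 ± 0.05 and 0.04 ± 0.05. Bid shares 628 bases, 17.7% of its exons, with Bcl2l13 on the other strand, whose 805 to 1625 counts exceed the 462 to 830 of Bid, and whether the counting used strand is not given in the sources used here. Bcl2l13 went the other way with LPS (log2 -0.31 ± 0.05 in WT, edgeR adjusted p = 1.11e-06).

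Bbc3 (ENSMUSG00000002083, chromosome 7, 16308393 to 16318205, plus strand), which encodes PUMA, and Pmaip1 (ENSMUSG00000024521), which encodes NOXA, are both known targets of p53. Bbc3 was low, between 4.51 and 7.40 CPM in all 24 samples, and rose slightly with LPS (log2 0.25 ± 0.11, edgeR adjusted p = 0.0344 in WT; 0.23 ± 0.10, edgeR adjusted p = 0.0484 in the labelled KO). Both calls were lost with no filter on low counts (edgeR adjusted p = 0.0534 and 0.0804), once replicate pairs were summed (0.127 and 0.156), that of the labelled KO in a model of only the 2 groups (0.0912), and without 1 of several libraries: WT LPS replicate 4, WT untreated replicates 1 or 3, KO LPS replicates 1 or 2, and KO untreated replicates 3 or 4 (0.0628 to 0.209).

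Pmaip1 rose with zymosan in both genotypes. Its WT samples held 55.6, 56.3, 49.1 and 44.6 CPM untreated and 64.4, 63.0, 54.1 and 56.4 CPM with zymosan, and the ranges overlapped (log2 0.21 ± 0.07, edgeR adjusted p = 0.0106). Samples labelled KO went from 56.4, 55.6, 55.2 and 47.5 CPM to 65.9, 67.5, 69.0 and 65.8 CPM, without overlap (log2 0.32 ± 0.07, edgeR adjusted p = 0.000288). With LPS the values were log2 0.06 ± 0.07 (edgeR adjusted p = 0.485) in WT and 0.17 ± 0.07 (edgeR adjusted p = 0.0336) in the labelled KO. The last call was lost without KO LPS replicate 3 or 4 or KO untreated replicate 4 (edgeR adjusted p = 0.0809 to 0.153), and the WT zymosan call without WT untreated replicate 4 (0.0628). With replicate pairs summed, both the LPS call in the labelled KO (edgeR adjusted p = 0.146) and the WT zymosan call (0.0824) were lost.

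The 2 stimuli were then set against each other, and in WT the differences were widest for Bcl2, Bid, Bcl2l11 and Bak1. There, 4 members were higher with zymosan than with LPS and 3 were lower, against 24.5% and 21.9% of all tested genes. The level of Bcl2 after zymosan was 1.85-fold that after LPS (log2 0.89 ± 0.10, edgeR adjusted p = 1.56e-07) and that of Bcl2l11 was 1.25-fold (log2 0.33 ± 0.05, edgeR adjusted p = 1.84e-05). Bid was 1.38-fold lower (log2 -0.47 ± 0.05, edgeR adjusted p = 5.01e-08) and Bak1 1.24-fold lower (log2 -0.31 ± 0.04, edgeR adjusted p = 1.05e-07). None of these 4 overlapped between the stimuli.

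Smaller differences between the stimuli in WT were called for Bcl2l1 (log2 0.17), Bax (0.15) and Bcl2a1b (-0.15). The labelled KO also had 4 members higher and 3 lower, against 22.7% and 20.0% of genes, with Bcl2 at log2 0.86 ± 0.10, Bcl2l11 at 0.17 ± 0.05, Bid at -0.32 ± 0.05, Bak1 at -0.26 ± 0.04, Bax at 0.22 ± 0.05, Bcl2a1b at -0.18 ± 0.05 and Bcl2l1 at 0.16 ± 0.04. With replicate pairs summed, 2 members remained called higher and 2 lower in WT, Bcl2 and Bcl2l11, and Bak1 and Bid. In the labelled KO 1 remained higher, Bcl2, and 2 lower, Bak1 and Bid. Left out singly, WT zymosan replicate 3 ended the WT call of Bcl2a1b (edgeR adjusted p = 0.0613), WT zymosan replicates 1 or 2 that of Bax (0.0584 and 0.0519), and KO LPS replicate 1 that of Bcl2l11 in the labelled KO (0.0502). Bbc3 stood at log2 -0.25 ± 0.11 in WT (edgeR adjusted p = 0.0558), and was called without WT zymosan replicate 2 (0.0172), with DESeq2's size factors (0.036), in a model of only the 2 groups (0.0298) and by DESeq2 (adjusted p = 0.0356). Pmaip1 stood at log2 0.15 ± 0.07 in both genotypes (edgeR adjusted p = 0.0801 in WT and 0.0897 in the labelled KO), and was called in WT without zymosan replicate 3 (0.0353) and in the labelled KO in a model of only the 2 groups (0.03).

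The genotype comparison asks whether the label KO changes family levels at rest and after each stimulus. In untreated cells no member was called higher or lower, against 4.31% and 5.64% of all tested genes. The 10 log2 differences ran from -0.03 to 0.10, and the widest 95% interval, that of Bbc3, ran from -0.18 to 0.25. Only Bak1 had an unadjusted p under 0.05. Its untreated samples labelled KO read 121, 124, 119 and 122 CPM, all above the 109.8 to 117 CPM of WT (log2 0.10 ± 0.04, edgeR adjusted p = 0.0738), and DESeq2 called it (adjusted p = 0.0446).

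After stimulation Bcl2 was higher and Bcl2l11 lower in the labelled KO. With zymosan these 2 were the only members called, 1 in each direction, against 10.6% of all tested genes higher and 11.4% lower. With LPS 1 member was called higher and 2 lower, against 15.6% and 18.2%. These numbers of members are near the shares of all tested genes. The 2 most abundant of the listed survival genes, Bcl2a1b and Mcl1, did not pass the test with either stimulus (log2 between -0.09 and -0.05).

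In zymosan-treated cells Bcl2 was 1.36-fold higher in the labelled KO, at 7.66 to 9.31 CPM against 5.57 to 7.11 CPM (log2 0.44 ± 0.09, edgeR adjusted p = 0.00101). With LPS it was 1.39-fold higher, at 4.36 to 4.89 CPM against 2.61 to 3.88 CPM (log2 0.48 ± 0.11, edgeR adjusted p = 0.00128). The genotypes did not overlap under either stimulus, and they did overlap untreated (log2 -0.01 ± 0.08). Both calls held with replicate pairs summed (edgeR adjusted p = 0.0272 and 0.0207).

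Bcl2l11 was 1.39-fold lower in the labelled KO with zymosan, at 31.3 to 31.95 CPM against 39.0 to 48.9 CPM (log2 -0.47 ± 0.05, edgeR adjusted p = 4.21e-07). With LPS it was 1.24-fold lower, at 26.9 to 28.6 CPM against 33.5 to 36.9 CPM (log2 -0.31 ± 0.05, edgeR adjusted p = 8.83e-05). The ranges were separate under both stimuli, and overlapped untreated (log2 -0.03 ± 0.05). With replicate pairs summed the edgeR adjusted p was 0.00551 with zymosan and 0.0295 with LPS.

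**Figure D4:**
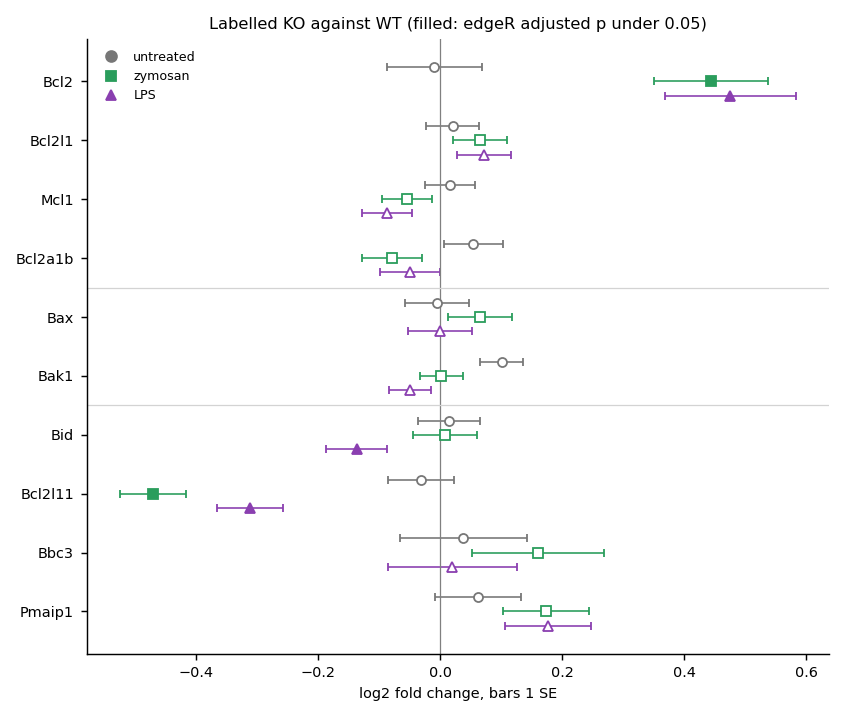
Log2 difference of labelled KO against WT (points) with bars of 1 SE for the 10 genes in untreated cells (grey circles), with zymosan (green squares) and with LPS (purple triangles); filled symbols are edgeR adjusted p under 0.05. The 2 stimulated points of Bcl2 lie at 0.44 and 0.48 and those of Bcl2l11 at -0.47 and -0.31, while their untreated points lie at -0.01 and -0.03.

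Bid was also called lower in the labelled KO with LPS (17.8 to 20.5 CPM against 20.02 to 22.6 CPM, log2 -0.14 ± 0.05, edgeR adjusted p = 0.0375), with overlapping ranges. That call was lost without KO LPS replicate 1 or 2 or WT LPS replicate 1, 3 or 4 (edgeR adjusted p = 0.0530 to 0.152), without the filter on low counts (0.110), in a model of only the 2 groups (0.104) and with replicate pairs summed (0.229). Its overlapping neighbour Bcl2l13 was higher there (log2 0.16 ± 0.05, edgeR adjusted p = 0.0082). Pmaip1 stood at log2 0.17 ± 0.07 with zymosan (edgeR adjusted p = 0.0828) and 0.18 ± 0.07 with LPS (edgeR adjusted p = 0.0578), and with zymosan all 4 samples labelled KO lay above all 4 of WT. A model of only the 2 LPS groups called it there (edgeR adjusted p = 0.0202), as did the fit to all groups without KO LPS replicate 2 (0.0358) or WT LPS replicate 1 (0.0471), and the zymosan difference was called without WT zymosan replicate 1 (0.0478).

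Whether the response itself differed by genotype was tested as the interaction. For zymosan 1 member was called lower (Bcl2l11) and none higher, against 0.846% and 0.973% of all tested genes (120 and 138 genes). With the replicate number as a block these became 240 and 266 genes, and 1 member was called higher. For LPS 1 member was called higher (Bcl2) and 1 lower (Bcl2l11), against 4.61% and 5.84%. The rise of Bcl2l11 was smaller in the labelled KO by log2 0.44 with zymosan (difference -0.44 ± 0.08, edgeR adjusted p = 0.00352) and by 0.28 with LPS (difference -0.28 ± 0.08, edgeR adjusted p = 0.0201). The fall of Bcl2 was smaller by log2 0.49 ± 0.13 with LPS (edgeR adjusted p = 0.0201) and by 0.45 ± 0.12 with zymosan, which missed the threshold without a block (edgeR adjusted p = 0.0522) and passed it with the replicate block (log2 0.46, edgeR adjusted p = 0.0364).

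These interaction calls rest on counting 4 separate replicates. With replicate pairs summed no member was called (edgeR adjusted p = 0.594 and 0.376 for Bcl2l11, 0.254 for Bcl2 with LPS), and of 15378 genes then tested 0 were called for zymosan and 5 for LPS. The LPS call of Bcl2 was lost without KO LPS replicate 1 (edgeR adjusted p = 0.051) or WT LPS replicate 1 (0.0541), and that of Bcl2l11 without WT LPS replicate 4 (0.0533). The zymosan difference for Bcl2 passed when KO zymosan replicate 3 (0.0369), WT zymosan replicate 3 (0.0215) or WT untreated replicate 4 (0.0388) was left out, and by DESeq2 (adjusted p = 0.0157). Bak1 in the LPS interaction (log2 -0.15, edgeR adjusted p = 0.0536) was called without KO LPS replicate 3 (0.0411), WT LPS replicate 3 (0.0419) or WT untreated replicate 4 (0.0422), and by DESeq2 (adjusted p = 0.015).

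Markers of DCs, of other cells and of division differed between the genotypes too, and their part in the Bcl2 and Bcl2l11 results was not tested. Of all tested genes, 5.64% were lower in the labelled KO untreated, 11.4% with zymosan and 18.2% with LPS. In the same order, 4.31%, 10.6% and 15.6% were higher. Of 11 tested conventional DC markers, 5 were higher and 2 lower untreated, 6 and 2 with zymosan, and 5 and 3 with LPS. The DC list summed to 3534 to 3729 CPM in the labelled KO and 3027 to 3207 CPM in WT untreated. With zymosan these sums were 4370 to 4678 and 3755 to 3896 CPM, and with LPS 3977 to 4168 and 3541 to 3769 CPM. The eosinophil list was lower in the labelled KO in untreated cells (6 of 7 tested genes) as well as with zymosan (6) and LPS (7). Of 9 macrophage markers 2 were lower untreated, 5 with zymosan and 9 with LPS, where the list summed to 1934 to 1960 CPM in the labelled KO and 2673 to 2824 CPM in WT. Of 12 neutrophil markers 5 were lower untreated, 6 with zymosan and 4 with LPS, and 4 were higher with LPS. Of 8 proliferation genes none was called untreated, 6 were higher with zymosan and 6 higher and 1 lower with LPS, with Ccnb1 at log2 0.53 ± 0.09 and 0.81 ± 0.10. Of the same 8 genes, 6 fell and 1 rose with zymosan, and 7 fell and none rose with LPS, in each genotype, beside 35.2% to 39.7% of all tested genes lower in the 4 comparisons.

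Other genes of the pathway were taken from 7 lists of 53 genes, 47 of them tested. Their counts in WT stand beside 34.3% of all tested genes higher and 35.9% lower with zymosan, and 35.9% higher and 39.7% lower with LPS. The remaining survival relatives with enough counts, Bcl2a1c and Bcl2l2 (BCL-W), were called higher in all 4 stimulation comparisons, Bcl2l2 by log2 0.52 ± 0.04 with zymosan and 0.41 ± 0.04 with LPS in WT. Of 5 other death relatives, 3 rose and 2 fell with zymosan in WT, and 2 rose and 3 fell with LPS. Bmf, a BH3-only gene, fell by log2 0.87 ± 0.12 and 0.73 ± 0.12, and Bok, a relative of the effectors, by 2.08 ± 0.36 and 2.96 ± 0.41. Bad, a BH3-only gene that responds to growth factor signals, rose by 0.53 ± 0.05 with LPS.

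Downstream of the mitochondria, genes moved in both directions. Of 10 genes for the apoptosome, caspases and released proteins, 5 rose and 3 fell with zymosan in WT, and 6 rose and 4 fell with LPS (medians log2 0.28 and 0.20). All tested genes moved in both directions as well, 34.3% higher and 35.9% lower with zymosan in WT, and 35.9% higher and 39.7% lower with LPS. Htra2, a protease released from mitochondria, rose by log2 0.76 ± 0.07 and 1.37 ± 0.07. Of the listed genes for inhibitor of apoptosis proteins, 4 of 5 rose in all 4 stimulation comparisons, beside 31.6% to 35.9% of all tested genes. Their WT medians were log2 0.65 and 0.65, and they were led by Birc3 (2.29-fold and 2.45-fold) and Birc2 (log2 0.75 ± 0.06 and 0.81 ± 0.06). The exception was Birc5 (survivin), also a mitotic gene, which fell by 1.36 ± 0.09 and 1.84 ± 0.09.

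In the death receptor arm, 6 of 8 genes rose and 0 fell with zymosan in WT, and 7 rose and 1 fell with LPS (medians log2 0.30 and 0.53). For this and the next lists, 34.3% of all tested genes were higher and 35.9% lower with zymosan in WT, and 35.9% and 39.7% with LPS. Cflar, which encodes the caspase-8 inhibitor FLIP, rose by 2.06 ± 0.06 and 2.09 ± 0.06, the receptor gene Fas by 1.27 ± 0.06 and 1.84 ± 0.06, and Casp8 by 0.97 ± 0.05 and 1.43 ± 0.05. Of 11 genes for p53 and its targets, 3 rose and 6 fell with zymosan and 3 rose and 7 fell with LPS (medians -0.24 and -0.44). Cdkn1a, the cell cycle inhibitor p21, rose by 1.13 ± 0.05 and 0.96 ± 0.05, while Zmat3 fell by 0.95 ± 0.07 and 1.27 ± 0.08. Of 6 regulators of MCL1 and BIM protein turnover, 4 rose and 1 fell with zymosan. Usp9x, a deubiquitinase that stabilises MCL1, rose by 0.65 ± 0.07. With LPS 3 rose and 2 fell, among them Foxo3, a transcription factor known to drive Bcl2l11, which fell by 0.52 ± 0.06.

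Between genotypes the untreated lists held 2 calls among the 47 tested genes, against 4.31% of all tested genes higher and 5.64% lower. Both were lower in the labelled KO: Apaf1 (log2 -0.15 ± 0.04), the scaffold of the apoptosome, and Perp (-2.49 ± 0.14), a p53 target. With LPS the death receptor arm had 5 of 8 genes lower and 1 higher in the labelled KO (Casp8 -0.35 ± 0.05, Cflar -0.31 ± 0.06, Tnfrsf10b 0.37 ± 0.12), against 18.2% and 15.6% of all tested genes, and 4 of 8 were called lower in the interaction (5.84% of all). The caspase and apoptosome list had 4 of 10 lower with zymosan (11.4% of all) and 5 lower and 2 higher with LPS. Bmf was 0.60 ± 0.12 higher with LPS (edgeR adjusted p = 0.000379), so the BH3-only genes Bmf and Bcl2l11 differed in opposite directions there. Foxo3 was higher in the labelled KO with zymosan (0.22 ± 0.06) and LPS (0.42 ± 0.07), and its part in the level of Bcl2l11 was not tested.

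Finally, the genes with the most similar profile over the 24 samples were listed for each member, among 9050 genes that averaged 5 CPM or more. These correlations of log2 CPM are descriptions only, since the 24 samples share 6 groups. Bcl2 was most like Atic (r = 0.991) and Cers5 (0.990), Bcl2a1b was close to Sp140 (0.997), and Mcl1 was most like Rhoa and Rab11a (0.987 each). Bak1 was nearest to Wars and Cog4 (0.989 each), Bid to Rexo4 (0.967) and Commd9 (0.958), and Bcl2l11 to Stat4 (0.941) and Cd14 (0.940). The 4 members that moved least had looser matches, Pmaip1 with Smc4 (0.901) and Seh1l (0.893), Bax with Trappc9 (0.876) and Mtln (0.873), Bcl2l1 with Arf6 (0.873) and Nqo1 (0.866), and Bbc3 with Spsb2 (0.867) and Uqcrq (0.835).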

How the data were processed

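RNA sequencing of 24 samples was deposited as 1 table of whole-number counts per gene. The tools in the submitters' processing notes are RSEM 1.2.31, Bowtie2 and DESeq2, the build is mm10, and neither their role nor the strandedness of the counting is given in the sources used here. The counts deposited by the authors were used unchanged (the plan allowed for decimals). GENCODE M21 named 37570 of 38887 identifiers (96.6%). In R 4.3.3, edgeR 4.0.16 (filterByExpr, TMM factors 0.880 to 1.19, glmQLFit, glmQLFTest, two-sided) was fitted to all 24 samples with 1 mean per group, and the SE was the log2 change over the root of F. CPM per kb used merged exons. Log2 CPM had a prior count of 2.

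The members and lists were chosen with earlier results of these data known. Named are all members, up to 3 called genes of largest change per list and comparison (not all are printed, and a few are not reported here), the Bcl2a1 copies and the 2 most similar genes. Alternatives were DESeq2 1.42.0, its size factors, no filter, only the groups compared, a replicate block, summed replicate pairs, summed Bcl2a1 rows and leaving out each sample. The replicate numbers of the labels were checked as pairs by the correlation of samples' deviations from their group means: all 4 passed 0.1 between untreated and zymosan samples in WT (0.151 to 0.247) and in the labelled KO (0.125 to 0.205), and not all did between any other groups. The labels give no pairing. Samples of unequal number were not compared between these groups taken 2 at a time. The values therefore cannot tell pairing by number from a shared split of replicates 1 and 2 from 3 and 4. The procedure was tested on simulated data. The simulated libraries were drawn independently, without the resemblance within replicate pairs, and only zymosan against untreated cells in WT was tried. It therefore did not test the interaction calls.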

Additional observations from a re-analysis of the deposited data

Results flagged for a closer look

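In 4 of 60 groups of 4 samples, 1 sample lay far from the other 3, where chance gives about 1 in 20 groups. These were Mcl1 in the labelled KO with zymosan (replicate 3, 989.7 CPM), Bid in the same group (replicate 2, 14.1 CPM), Bbc3 in WT with LPS (replicate 4, 6.72 CPM) and Pmaip1 in the untreated labelled KO (replicate 4, 47.5 CPM). The response differed between genotypes for Bcl2l11 with zymosan (log2 -0.44) and LPS (log2 -0.28) and for Bcl2 with LPS (log2 0.49), as tested by edgeR's interaction.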

How the results depend on the processing

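The Bcl2 and Bcl2l11 differences between genotypes after each stimulus kept their direction and call under every alternative run. The number of members called changed by more than 1.5 times in these cases. With replicate pairs summed, members higher fell from 7 to 4 for LPS in the labelled KO, from 4 to 2 for zymosan against LPS in WT, from 4 to 1 for the same in the labelled KO and from 1 to 0 in the LPS interaction. Members lower fell from 2 to 1 between genotypes with LPS and from 1 to 0 in both interactions. Calls over all tested genes fell too. Genes higher went from 4886 of 14188 to 4324 of 15378 for LPS in the labelled KO. For zymosan against LPS they went from 3481 to 2280 in WT and from 3227 to 1969 in the labelled KO, and in the LPS interaction from 654 to 2. Genes lower went from 2585 to 1146 between genotypes with LPS, from 120 to 0 in the zymosan interaction and from 828 to 3 in the LPS interaction. DESeq2 and the replicate block each gave 1 member higher between genotypes untreated, 1 higher in the zymosan interaction and 2 lower in the LPS interaction. Over all tested genes DESeq2 and the block gave 666 and 860 higher between genotypes untreated, against 611 in the main fit. They gave 226 and 266 higher in the zymosan interaction (138 in the main fit) and 1059 and 1356 lower in the LPS interaction (828). The replicate block also gave 2 higher between genotypes with zymosan and with LPS (Pmaip1). There it gave 1808 and 2487 of all tested genes higher, against 1510 and 2220 in the main fit. The block changed no call of zymosan against untreated cells, where all correlations of samples with equal numbers passed 0.1. Between other groups not every correlation passed 0.1 (48 of all 60 were at or under it), and 12 of 24 samples lay closest to their own number. A model of only the groups compared gave 2 higher and 1 lower between genotypes with LPS (over all genes, 2436 higher and 2556 lower of 13335). No filter gave 1 lower there (2306 of 24078 genes). Leaving out 1 sample gave 1 to 2 higher between genotypes with zymosan and with LPS, 1 to 2 lower with LPS, 0 to 1 higher in each interaction and 0 to 2 lower in the LPS interaction. Calls over all tested genes were not counted for these fits. Smaller changes in number came with summed pairs (higher 6 to 4 for zymosan and 6 to 5 for LPS in WT, 6 to 5 for zymosan in the labelled KO; lower 3 to 2 for zymosan against LPS in each genotype) and, by 1 member each, with other settings, the replicate block among them (Bbc3, zymosan against LPS in WT, edgeR adjusted p = 0.0391). Over all tested genes, summed pairs took those higher from 4867 to 4339 for zymosan and from 5100 to 4708 for LPS in WT. In the labelled KO those higher with zymosan went from 4487 to 3871. Genes lower for zymosan against LPS went from 3106 to 1979 in WT and from 2832 to 1582 in the labelled KO. The cause of these changes was not tested.

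Signs turned only for values near 0 that were not called. DESeq2 size factors and DESeq2 turned Bax (LPS interaction -0.0040 and -0.0038, zymosan in the labelled KO 0.013 and 0.013), Bbc3 (zymosan in WT 0.012 and 0.012) and Bcl2l1 (LPS in the labelled KO 0.016 and 0.016). Summed pairs turned Bak1 (genotypes with zymosan -0.0018), Bax (zymosan in the labelled KO 0.0033) and Bbc3 (zymosan in WT 0.0031). Only the groups compared turned Bax (genotypes with LPS 0.010, zymosan in the labelled KO 0.025) and Bid (zymosan interaction 0.011), and no filter turned Bax between genotypes with LPS (0.0017).

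With 1 sample left out, the uncalled values that changed sign ranged as follows. Between genotypes untreated, Bax ran from -0.053 to 0.025, Bbc3 from -0.032 to 0.12, Bcl2 from -0.056 to 0.038, Bcl2l1 from -0.0087 to 0.041, Mcl1 from -0.00024 to 0.032 and Pmaip1 from -0.00052 to 0.12. With zymosan Bak1 ran from -0.017 to 0.016 and Bid from -0.019 to 0.048, and with LPS Bax from -0.023 to 0.021 and Bbc3 from -0.064 to 0.079. In the LPS interaction Bax ran from -0.025 to 0.053 and Bbc3 from -0.11 to 0.053, and in the zymosan interaction Bid from -0.034 to 0.033. Under stimulation, zymosan in the labelled KO gave Bax -0.035 to 0.047, zymosan in WT Bbc3 -0.087 to 0.045, LPS in the labelled KO Bcl2l1 -0.035 to 0.012 and LPS in WT Pmaip1 -0.0067 to 0.10.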
